A study of Mus musculus with 15 samples.

Results

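The transcripts of 10 genes that encode known or putative deubiquitinases of histone H2A were followed in mouse embryos with and without maternal Usp16. These genes were Usp16, Usp3, Usp12, Usp21, Usp22, Usp28, Usp32, Usp36, Bap1 and Mysm1. They were taken by name from a table of 14392 genes, and all 10 were listed. The RNA-seq data comprised 8 libraries in 4 groups of 2, with WT and cKO embryos taken at the zygote and at the 2-cell stage. Each library pooled 10 embryos and was made by Smart-seq2, a full-length cDNA method that starts from poly(A) tails and does not mark the strand. WT embryos came from Usp16 +/+ females, and cKO embryos came from Usp16 fl/fl;Gdf9-Cre females, both on a C57BL/6 background. For early embryos, the methods describe superovulated juvenile females mated with adult WT males. Gdf9-Cre acts in the oocyte from the primordial follicle onwards, so a cKO embryo lacks the maternal store of Usp16 and still receives an intact paternal allele. The recombined allele carries an in-frame deletion, and FPKM counts a gene's reads over all of its exons. Transcripts of the recombined allele therefore cannot be told apart from intact ones in these values.

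Ubiquitin is attached to a lysine near the carboxyl end of histone H2A by the Polycomb complex PRC1, whose catalytic subunits are RING1 and RNF2, and the mark accompanies gene repression. Deubiquitinases take it off again. Most of those studied here are ubiquitin-specific proteases with a cysteine in the active site, whereas BAP1 is a cysteine protease of the ubiquitin C-terminal hydrolase family and MYSM1 is a zinc metalloprotease. In the mouse, oocytes and zygotes live on stored maternal RNA, which is cleared while the embryonic genome switches on at the 2-cell stage, so a transcript level there reflects both supplies.

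The coding sequence around each active site is shown for 6 genes because it marks which of the 3 enzyme classes a gene belongs to. Positions are those of mm9 in the GENCODE M1 annotation. All sequences are read 5′ to 3′ on the coding strand. The capitals mark the codon of the catalytic cysteine or, in Mysm1, of the first zinc-binding histidine, and 7 codons are given on either side.
Usp16, codon 204 at chr16:87470084-87470086, plus strand, exon 6 of 18: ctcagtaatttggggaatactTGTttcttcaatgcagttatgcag
Usp3, codon 168 at chr9:66391782-66391784, minus strand, exon 6 of 15: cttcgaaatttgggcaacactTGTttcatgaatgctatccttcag
Usp21, codon 221 at chr1:173215504-173215506, minus strand, exon 4 of 13: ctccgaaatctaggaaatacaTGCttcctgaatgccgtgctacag
Usp28, codon 171 at chr9:48812064-48812066, plus strand, exon 5 of 24: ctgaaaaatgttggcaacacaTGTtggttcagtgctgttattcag
Bap1, codon 91 at chr14:32066657-32066659, plus strand, exon 5 of 17: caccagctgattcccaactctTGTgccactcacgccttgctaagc
Mysm1, codon 647 at chr4:94618928-94618930, minus strand, exon 16 of 20: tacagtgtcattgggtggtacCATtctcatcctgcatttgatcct
Of these 45 bases, Usp3 shares 33 with Usp16, and Usp21 and Usp28 share 32 each. Bap1 and Mysm1, of the other classes, share 16 and 17. Over the other ubiquitin-specific proteases, the number was 30 for Usp12 and Usp32, 29 for Usp22 and 27 for Usp36. Each window was placed by the active-site pattern of its class. Part of the likeness within the ubiquitin-specific proteases was therefore set in advance. The coding sequence of Usp16 has 825 codons, and the gene spans chr16:87454948-87483762.

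The libraries agreed least at the 2-cell stage. Read depth cannot be recovered from FPKM, and the precision of each value is that of 2 libraries per group. Every value under 1 had been set to 1 by the authors, and this value is called the floor here. The summed FPKM lay between 547752 and 593317 in 7 libraries and was 770989 in cKO 2-cell replicate 2. Between replicates, 41 genes in WT zygotes, 20 in cKO zygotes and 199 in WT 2-cell embryos were more than 3-fold apart, against 1912 in cKO 2-cell embryos. Calls that rest on the cKO 2-cell libraries are therefore also given without each of them. Of 10 oocyte and zygote markers, all were listed, with sums of 21959 to 24350 FPKM in zygotes. The sums were 8879 to 11155 in WT and 7234 to 11874 in cKO 2-cell embryos. Dppa3 made up most of the cKO 2-cell sums, at 5888 and 8774 FPKM against 2958 and 2472 in WT. In cKO 2-cell embryos, both libraries of Bmp15, Oosp1, Nlrp5, Zar1, Npm2, Btg4 and Oog1 lay under both WT libraries. Those of Zp3 and Dppa3 lay above, and those of Gdf9 overlapped. For 8 of 10 markers of the 2-cell stage that were listed, the sums were 9.45 to 13.5 in zygotes, 613 to 859 in WT and 207 to 291 in cKO 2-cell embryos. Among markers of cumulus and granulosa cells 3 of 10 were listed, with sums of 24.3 to 28.7 FPKM in zygotes, 4.38 to 10.3 in WT and 3.0 to 3.32 in cKO 2-cell embryos. Cyp19a1 made up most of the zygote sum, at 22.3 to 26.7 FPKM, where Foxl2 and Tnfaip6 were at the floor. At the 2-cell stage, Cyp19a1 was at 1.78 or less, whereas Foxl2 was at 1.55 and 1.06 and Tnfaip6 at 1.83 and 7.45 in WT embryos.

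Usp16, which removes ubiquitin from H2A in dividing cells, was the most abundant of the 10 transcripts in WT embryos at both stages. FPKM is scaled by transcript length, so levels can be compared between genes. In WT zygotes, Usp16 stood at 184 and 187 FPKM in the 2 libraries, which placed it 548th and 497th among all 14392 genes. Usp28 came next at 79.7 and 104 FPKM, and its mean of 92.1 ± 17.5 (SD, n = 2) was 2.02-fold under the 186 ± 2.19 of Usp16. No library of one overlapped a library of the other. Usp3 followed with a mean of 58.9 ± 13.6, then Usp21 with 28.7 ± 8.02 and Bap1 with 20.3 ± 5.37. The libraries of Usp21 and Bap1 overlapped, so their order is not resolved. Mysm1 had a mean of 11.7 ± 1.41 and Usp32 of 6.63 ± 1.47. The last 3 genes, Usp36, Usp22 and Usp12, had means of 1.59, 1.57 and 1.23 FPKM, close to the floor, and Usp36 and Usp22 overlapped.

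At the 2-cell stage in WT embryos, Usp16 was again first, at 168 and 183 FPKM, and exceeded the next gene by 3.56-fold in the mean. Behind it, Usp28, Usp21 and Bap1 had means of 49.3 ± 1.67, 46.2 ± 12.4 and 44.1 ± 8.06 (SD, n = 2), and neighbours in this order overlapped. Usp22 was at 24.6 ± 0.179, Usp32 at 20.4 ± 0.565 and Usp3 at 15.1 ± 0.136, each apart from the next. Mysm1 at 11.1 ± 3.87 overlapped Usp36 at 8.51 ± 1.77, and Usp12 was last at 4.60 ± 0.618. The floor thus no longer limits any of the 10 genes at this stage.

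**Figure D1:**
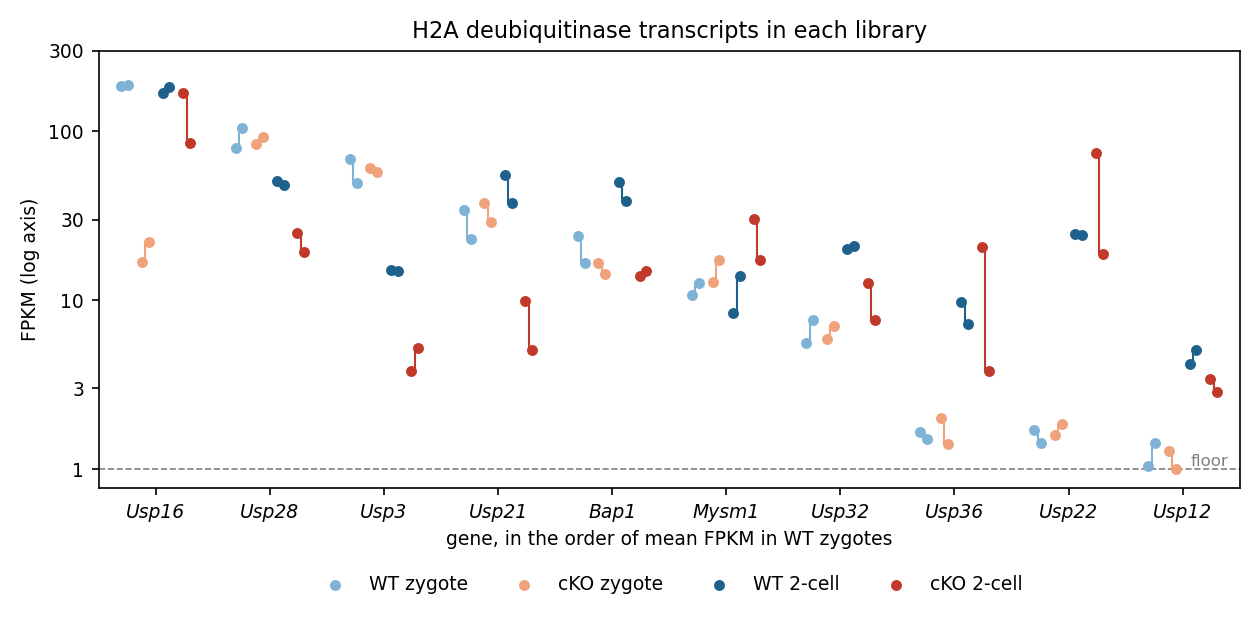
FPKM of the 10 genes on a log axis, by gene in the order of the WT zygote means. Each point is 1 library, colours give the 4 groups, and a line joins the 2 replicates of a group. Usp16 stands at 168 to 187 FPKM in the WT libraries and at 16.8 and 22.0 in cKO zygotes, and the widest replicate gaps are those of Usp36 and Usp22 in cKO 2-cell embryos.

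Comparing cKO with WT zygotes asks whether other deubiquitinase transcripts differed where the maternal store of Usp16 was deleted. Usp16, the targeted gene, stood at 16.8 and 22.0 FPKM in the cKO zygote libraries against 184 and 187 in WT. Both cKO libraries lay far below both WT libraries. The ratio of the means was 9.58-fold, and Usp16 dropped from the first to the fourth place, behind Usp28, Usp3 and Usp21. On the log2(FPKM + 1) scale, its fold change was -3.21 (SE 0.34, 95% interval -4.03 to -2.39), and limma gave an adjusted p of 0.191 with Benjamini-Hochberg adjustment over 14392 genes. The call depended on how the spread was modelled, since limma with one weight per group gave 0.00342 for the same fold change. Exact permutation of 2 libraries against 2 cannot go below a two-sided p of 0.333.

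Some Usp16 signal remained in cKO zygotes, at 19.4 ± 3.64 FPKM (SD, n = 2). The last exon of Usp16 shares up to 193 bases with exons of Cct8, a chaperonin subunit gene on the opposite strand, and the libraries do not mark strand. Cct8 stood at 210 and 193 FPKM in WT and at 191 and 188 in cKO zygotes. Its part in the remaining Usp16 value was not tested. As each library pools 10 embryos, less RNA in every embryo cannot be told apart from loss in some of them.

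None of the other 9 genes differed between cKO and WT zygotes in limma, and their log2 fold changes ranged from -0.35 for Bap1 to 0.33 for Mysm1, each with an adjusted p of 1.0. The call count was 0 in either direction, with 0.0208% of all genes called higher and 0.0% called lower, so very few genes passed this test at all. At an unadjusted p under 0.05, Usp16 was the only one of the 10, whereas 324 genes of the table were higher and 84 were lower by that measure. By the 3-fold rule of the study, applied to group means, Usp16 was lower and no other of the 10 differed. Over all genes, this rule called 0.104% higher and 0.0486% lower. The libraries of the 2 genotypes did not overlap for Usp16, which was lower, and for Mysm1, which was higher at 12.9 and 17.3 against 10.7 and 12.7 FPKM. Such separation was seen in 15.8% of all genes for higher and in 10.2% for lower values.

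Intervals show how large a missed change could be. Usp28, the most abundant of the others, stood at 79.7 and 104 FPKM in WT and at 84.7 and 92.2 in cKO zygotes, and its log2 fold change of -0.05 had a 95% interval from -0.58 to 0.48. Usp3 gave 0.02, with an interval from -0.55 to 0.60. For Usp22 and Usp36, the intervals were wider, from -1.35 to 1.51 and from -1.56 to 1.66. Both are near the floor in zygotes, but so is Usp12, with an interval from -0.47 to 0.35. All these intervals use 1 spread shared by the 4 groups, which includes the cKO 2-cell libraries. With the 4 zygote libraries fitted alone, the SE was 0.0894 for Usp22 and 0.138 for Usp36, against 0.59 and 0.66 in the shared fit. An increase of 1 log2 unit lay within the intervals of Usp21, Mysm1, Usp22 and Usp36 and was thus not excluded for them. The intervals do not say which changes the test could detect, since Usp16 itself missed the threshold at -3.21.

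Summed over the 9 genes other than Usp16, the FPKM was 227 and 218 in WT and 224 and 221 in cKO zygotes, so the libraries interleaved. With Usp16 added, the sum was 412 and 406 in WT and 241 and 243 in cKO zygotes. Usp16 made up 44.8% and 46.2% of the summed FPKM in WT zygotes, but 7.0% and 9.04% in cKO zygotes. At the 2-cell stage, its share was 41.5% and 46.5% in WT and 46.4% and 47.2% in cKO embryos. The sum of the other 9 was then 238 and 210 in WT and 194 and 95.1 in cKO embryos. Both cKO 2-cell libraries lay under both WT libraries, and the 2 cKO libraries differed from each other by more than either zygote group did.

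**Figure D2:**
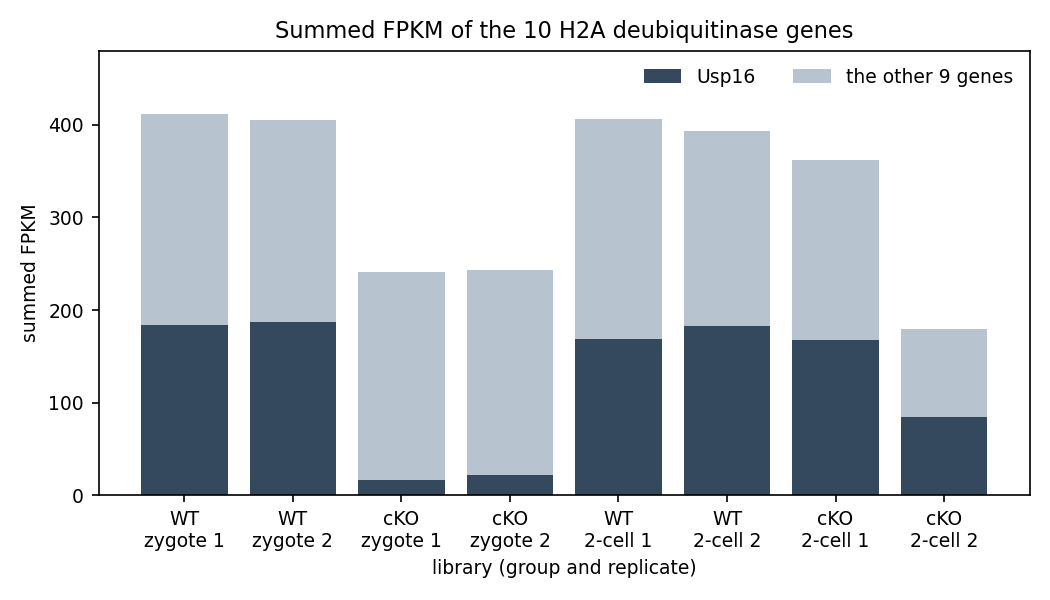
Summed FPKM of the 10 genes in each of the 8 libraries, from 0, with Usp16 as the dark and the other 9 genes as the light part of each bar. The light part is 218 to 227 in all 4 zygote libraries, and the dark part is small in cKO zygotes.

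The same comparison at the 2-cell stage asks which deubiquitinase transcripts differed once the embryonic genome was active. Usp21, Usp3, Bap1 and Usp28 were lower in cKO than in WT embryos and none of the 10 was higher. Over all genes, limma called 24.6% lower and 6.16% higher, and the 4 of 10 are to be read against that share. At an unadjusted p under 0.05, 6 of the 10 were lower and 1 was higher, where all genes gave 33.4% and 9.14%. Median-ratio scaling evened out the calls over all genes, with 13.8% lower and 10.5% higher. Of the 10, 3 were then lower and 1, Mysm1, was higher. All 4 calls rest on 1 spread shared by the 4 groups. When each group had its own weight, or when the 4 libraries of the 2-cell stage were fitted alone, limma called 0 of the 10. Over all genes, these fits called 0.834% and 0.0% higher and 5.93% and 0.0% lower. Usp28 lost its call under that scaling, at an adjusted p of 0.057, and without WT 2-cell replicate 1, at 0.0528.

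Usp21, a protease whose action on H2A is linked to transcription initiation, stood at 54.9 and 37.4 FPKM in WT and at 9.88 and 5.09 in cKO 2-cell embryos. Even the higher cKO library was under the lower WT library. Its mean was 6.17-fold lower, and the log2 fold change was -2.51 (SE 0.38, adjusted p = 0.00622 from limma). Usp3, which acts on H2A in the response to DNA damage, was at 15.2 and 15.0 in WT and at 3.82 and 5.23 in cKO embryos. Its WT libraries were nearly equal and both cKO libraries lay well below them. The fold was 3.32, with a log2 fold change of -1.55 (SE 0.24, adjusted p = 0.0065). For Bap1, the catalytic subunit of the PR-DUB complex, values were 49.8 and 38.4 in WT and 14.0 and 15.0 in cKO embryos. Here the cKO libraries were the closer pair. Bap1 was 3.05-fold lower, at a log2 fold change of -1.53 (SE 0.25, adjusted p = 0.00804).

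Usp28, which stabilizes several nuclear proteins including MYC, was at 50.5 and 48.2 FPKM in WT and at 24.9 and 19.4 in cKO 2-cell embryos. Again, the groups did not overlap. The change was smaller, at 2.23-fold, with a log2 fold change of -1.13 (SE 0.22, adjusted p = 0.0127 from limma). Leaving out cKO 2-cell replicate 1 gave log2 fold changes of -2.93 for Usp21, -1.36 for Usp3, -1.49 for Bap1 and -1.30 for Usp28. Leaving out replicate 2 gave -2.09, -1.73, -1.58 and -0.96 in the same order. All 8 of these values stayed below 0. In these fits, the remaining cKO 2-cell library is assumed to vary like those of the other groups, so the values are given as sizes only.

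Usp16 itself did not pass the test at the 2-cell stage. It stood at 168 and 183 FPKM in WT and at 168 and 84.8 in cKO embryos. Replicate 1 of the cKO embryos was just under the lower WT library, whereas replicate 2 was 1.98-fold below replicate 1. The log2 fold change was -0.55 (SE 0.34, 95% interval -1.37 to 0.27), with an adjusted p of 0.263 in limma. It was -1.04 without cKO 2-cell replicate 1 (adjusted p = 0.0154) and -0.07 without replicate 2 (adjusted p = 0.833), so the call depends on which library is kept.

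Mysm1, the metalloprotease, was the only one of the 10 whose cKO libraries both exceeded the WT libraries, with 30.1 and 17.3 FPKM against 8.41 and 13.9. Its log2 fold change of 1.01 (SE 0.36) had an adjusted p of 0.0816 in limma. It passed without cKO 2-cell replicate 2, at 1.39 and an adjusted p of 0.0433, but not without replicate 1, at 0.63. Median-ratio scaling also gave a call, at 1.45 and 0.0288, as did a crossed replicate block that was chosen after seeing the data (0.0265). Usp32, a membrane-associated protease of endosomes and Golgi, was at 20.0 and 20.8 FPKM in WT and at 12.7 and 7.66 in cKO embryos. These groups did not overlap, yet the log2 fold change of -0.97 (SE 0.29, adjusted p = 0.0508) narrowly missed the threshold. It was -1.30 without cKO 2-cell replicate 1 (adjusted p = 0.013) and -0.64 without replicate 2 (0.0861). Usp12, a protease that works with the cofactor WDR48, had 4.17 and 5.04 FPKM in WT and 3.40 and 2.88 in cKO embryos, and its log2 fold change was -0.43 (SE 0.17, adjusted p = 0.1). Neither leave-out gave a call for Usp12, at -0.53 and -0.34.

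Usp22 and Usp36 differed more between the cKO replicates than between the genotypes. Usp22, the deubiquitinase of the SAGA coactivator complex, was at 24.7 and 24.5 FPKM in WT and at 74.6 and 18.8 in cKO 2-cell embryos. One cKO library was above and the other below the WT pair. Its log2 fold change of 0.59 (SE 0.59, adjusted p = 0.477 in limma) turned to -0.37 without cKO 2-cell replicate 1 and rose to 1.56 without replicate 2, where it passed (adjusted p = 0.00439). Usp36, a nucleolar protease, was at 9.77 and 7.26 in WT and at 20.7 and 3.80 in cKO embryos. Its log2 fold change of 0.11 (SE 0.66, adjusted p = 0.939) turned to -0.98 without cKO 2-cell replicate 1 (adjusted p = 0.0309) and was 1.20 without replicate 2 (adjusted p = 0.0233). Replicate ratios in cKO 2-cell embryos were 5.45 for Usp36 and 3.98 for Usp22, whereas the highest ratio of any of the 10 genes was 1.65 in WT 2-cell embryos and 1.49 in WT zygotes.

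The groups were apart for 7 of the 10 genes in the lower and for 1 in the higher direction at the 2-cell stage. All genes gave 43.4% and 14.0%. By the 3-fold rule, 3 of the 10, Usp21, Usp3 and Bap1, were lower and none was higher, beside 13.5% and 2.84% of all genes. Without cKO 2-cell replicate 1 this count was 1. The median log2 fold change of the 10 genes was -0.76, against -0.30 for all genes. Scaling shifts this reference, since the median of all genes was -0.03 after median-ratio scaling and -0.45 after scaling to equal sums. The summed 2-cell markers were also lower in cKO 2-cell embryos (207 to 291 against 613 to 859 FPKM), and their part in these differences was not tested.

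**Figure D3:**
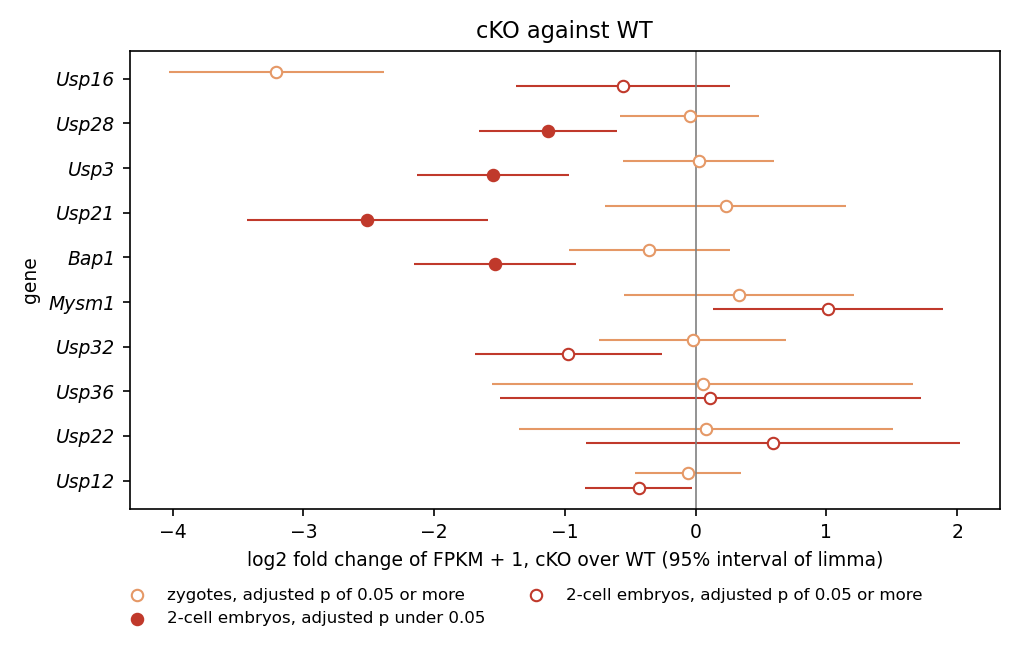
Log2 fold change of FPKM + 1 from WT to cKO for each of the 10 genes, with the 95% interval of limma, in zygotes (light) and 2-cell embryos (dark). Filled points have an adjusted p under 0.05. In zygotes only Usp16 lies far from 0, at -3.21, and in 2-cell embryos Usp21, Usp3, Bap1 and Usp28 are filled.

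Whether the genotype effect differed between the stages was tested as an interaction, the difference of the 2 log2 fold changes. Usp16 gave 2.65 (SE 0.48, adjusted p = 0.0251 in limma), Usp21 gave -2.74 (SE 0.54, adjusted p = 0.0305) and Usp3 gave -1.57 (SE 0.34, adjusted p = 0.0373). Thus 1 of the 10 was called in the higher and 2 in the lower direction, beside 1.58% and 10.2% of all genes. Bap1 at -1.18 (adjusted p = 0.0835) and Usp28 at -1.08 (adjusted p = 0.0721) did not pass, so their effect was not shown to differ between the stages. The 3 calls were lost with one weight per group, a fit that called 0.605% of all genes higher and 4.55% lower. They were also lost whenever a WT library or a cKO zygote library was left out. Without a zygote library, almost no gene of the table was called, so that loss is not particular to these genes. Without a WT 2-cell library, many other genes were still called. Without cKO 2-cell replicate 1, 5 of the 10 passed, 1 higher and 4 lower, in a fit that called 7.64% of all genes higher and 24.4% lower. Without replicate 2, 4 passed, 2 in either direction, beside 6.71% and 18.2%.

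The stages themselves were compared in WT embryos to see which transcripts differed between zygote and 2-cell embryo. FPKM is relative to the mapped reads of a library, so rises and falls do not measure RNA per embryo. The zygote to 2-cell comparison shares its WT libraries with the comparison of genotypes, so values are given side by side and no relation between them was tested. In WT embryos 4 of the 10 rose, namely Usp22, Usp32, Usp12 and Bap1, and 2 fell, namely Usp3 and Usp28. Over all genes, limma called 34.2% higher and 15.5% lower at the 2-cell stage. By the 3-fold rule, 4 of the 10 were higher, Usp22, Usp36, Usp12 and Usp32, and Usp3 was lower, beside 26.0% and 8.78% of all genes. The median of the 10 was 0.88 on the log2 scale, and that of all genes was 0.28, or 0.08 after median-ratio scaling.

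Among the genes that rose, Usp22 went from 1.71 and 1.43 FPKM in WT zygotes to 24.7 and 24.5 in WT 2-cell embryos. It was close to the floor before and in the middle of the 10 genes after. The mean was 15.7-fold higher, with a log2 fold change of 3.32 (SE 0.59, adjusted p = 0.00453 from limma). Usp32 rose from 5.60 and 7.67 to 20.0 and 20.8 FPKM, at a log2 fold change of 1.5 (SE 0.29, adjusted p = 0.0068). Usp12 rose from 1.04 and 1.43 to 4.17 and 5.04, at 1.33 (SE 0.17, adjusted p = 0.00122). As the zygote values of Usp12 were near the floor, the scale with 1 added understates its 3.73-fold rise. Bap1 rose 2.17-fold, from 24.1 and 16.5 to 49.8 and 38.4 FPKM, at 1.09 (SE 0.25, adjusted p = 0.0129). Its call was lost without WT zygote replicate 2 (0.0708) and without WT 2-cell replicate 1 (0.0665).

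Of the genes that fell, Usp3 went from 68.5 and 49.3 FPKM in WT zygotes to 15.2 and 15.0 in WT 2-cell embryos, 3.91-fold down. On the log2 scale it fell by 1.88 (SE 0.24, adjusted p = 0.00122 from limma). Usp28 went from 79.7 and 104 to 50.5 and 48.2 FPKM and fell by 0.87 (SE 0.22, adjusted p = 0.0169), a call that was lost in 4 of 15 alternatives. Usp36 was 5.36-fold higher in the mean, from 1.66 and 1.51 to 9.77 and 7.26 FPKM, but its log2 fold change of 1.87 (SE 0.66) had an adjusted p of 0.0579. It passed in 7 of 15 alternatives, among them one weight per group (0.00979), the 4 WT libraries alone (0.00754) and the fits without cKO 2-cell replicate 1 (0.00178) or 2 (0.00194). For Usp16, the log2 fold change was -0.08 (SE 0.34, 95% interval -0.90 to 0.74), at an adjusted p of 0.877, and both 2-cell libraries lay just under both zygote libraries. Mysm1 at -0.10 (adjusted p = 0.862) and Usp21 at 0.67 (adjusted p = 0.194) did not pass either, though Usp21 passed with a replicate block (0.044).

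In cKO embryos, Usp16 was among the genes that rose between the stages. It went from 16.8 and 22.0 FPKM in zygotes to 168 and 84.8 in 2-cell embryos, and the groups were well apart. The mean rose 6.50-fold, and the log2 fold change was 2.57 (SE 0.34, adjusted p = 0.00116 from limma). All 15 alternatives kept this call, with log2 fold changes between 2.08 and 3.06. Usp22 rose from 1.58 and 1.85 to 74.6 and 18.8 FPKM, at 3.83 (SE 0.59, adjusted p = 0.00219), a call that was lost when the cKO libraries were fitted alone (adjusted p = 0.0533). Usp12 rose from 1.28 and the floor of 1 to 3.40 and 2.88, at 0.95 (SE 0.17, adjusted p = 0.00383). Its call was lost with one weight per group, at an adjusted p of 0.0508.

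Usp3, Usp21 and Usp28 fell in cKO embryos. Usp3 went from 61.1 and 57.2 FPKM to 3.82 and 5.23, a 13.0-fold drop, with a log2 fold change of -3.45 (SE 0.24, adjusted p = 0.000138 from limma). Usp28 went from 84.7 and 92.2 to 24.9 and 19.4, 3.99-fold down, at -1.96 (SE 0.22, adjusted p = 0.000622). Usp21 went from 37.7 and 29.1 to 9.88 and 5.09, 4.46-fold down, at -2.07 (SE 0.38, adjusted p = 0.0045). In WT embryos, by comparison, its 2-cell libraries both lay above the zygote libraries. Bap1 stood at 16.6 and 14.3 in cKO zygotes and at 14.0 and 15.0 in cKO 2-cell embryos, so the groups overlapped, at -0.09 (SE 0.25, adjusted p = 0.856). The calls of Usp3, Usp28 and Usp21 held in all 15 alternatives. Usp36 at 1.93 (adjusted p = 0.0508), Usp32 at 0.55 and Mysm1 at 0.58 did not pass. Usp36 did pass in 7 of 15 alternatives, at 0.84 without cKO 2-cell replicate 1 (0.0356) and at 3.01 without replicate 2 (0.001). Usp32 passed only without replicate 2, at 0.88 (0.0277). The 6 called genes kept the direction of their change without either cKO 2-cell library.

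Counted together, 3 of the 10 rose and 3 fell in cKO embryos, beside 24.6% and 27.1% of all genes in limma. By the 3-fold rule, Usp16, Usp22 and Usp36 were higher and Usp3, Usp21 and Usp28 were lower, where the background was 22.8% and 19.2%. In cKO 2-cell embryos, the order of levels was led by Usp16 with a mean of 126 ± 58.6 FPKM (SD, n = 2), followed by Usp22 with 46.7 ± 39.5 and Mysm1 with 23.7 ± 9.02. Usp16 was apart from Usp22, but most other neighbours overlapped. Usp21, the third in WT, was the eighth there with 7.49 ± 3.39 FPKM.

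**Figure D4:**
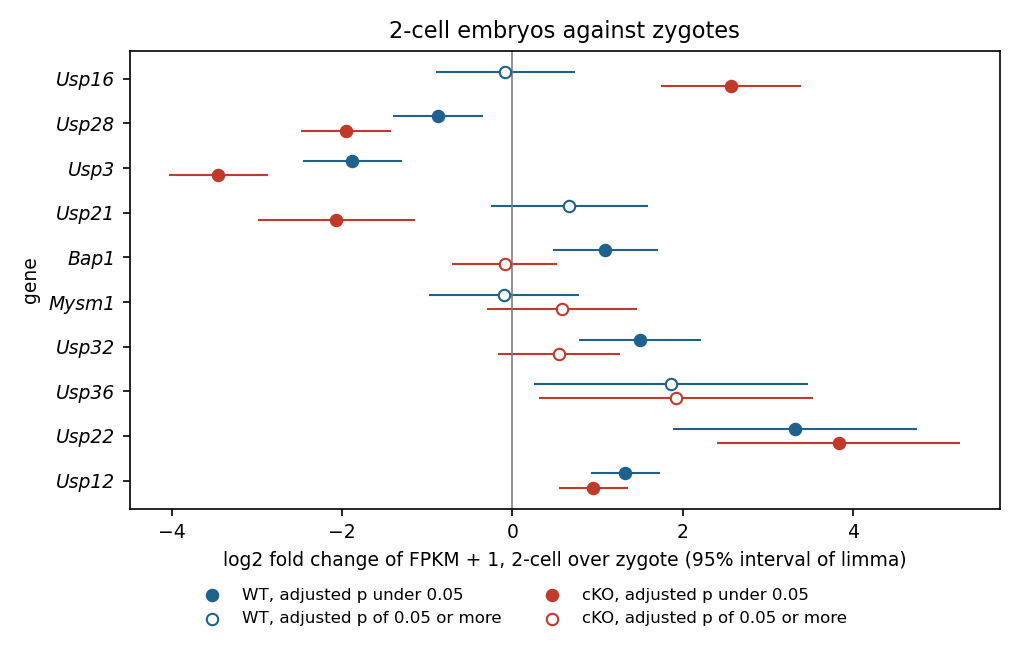
Log2 fold change of FPKM + 1 from zygote to 2-cell embryo for each of the 10 genes, with the 95% interval of limma, in WT (blue) and cKO (red) embryos. Filled points have an adjusted p under 0.05. Usp16 is at -0.08 in WT and at 2.57 in cKO embryos, and Usp3 is below 0 in both.

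Promoters are shown for 3 genes with different courses in WT embryos, one that did not pass the test (Usp16), one that rose (Usp12) and one that fell (Usp3). They are RefSeq sequences on GRCm38.p6 and cover 250 bases before to 50 bases after the start, 5′ to 3′ in the direction of the gene. Capitals mark matches to the CCAAT box (CCAAT), the GC box (GGGCGG), the TATA box (TATAAA), the cAMP response element (TGACGTCA) and an OTX-like homeobox motif (TAATCC), searched on both strands.
Usp16, chr16:87454735-87455034, plus strand: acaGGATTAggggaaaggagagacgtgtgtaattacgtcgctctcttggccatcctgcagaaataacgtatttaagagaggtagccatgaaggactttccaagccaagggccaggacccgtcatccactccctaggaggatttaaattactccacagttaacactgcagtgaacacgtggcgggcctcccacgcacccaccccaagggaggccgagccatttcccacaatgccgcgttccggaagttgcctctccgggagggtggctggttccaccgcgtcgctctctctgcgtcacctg
Usp12, chr5:146794907-146795206, minus strand: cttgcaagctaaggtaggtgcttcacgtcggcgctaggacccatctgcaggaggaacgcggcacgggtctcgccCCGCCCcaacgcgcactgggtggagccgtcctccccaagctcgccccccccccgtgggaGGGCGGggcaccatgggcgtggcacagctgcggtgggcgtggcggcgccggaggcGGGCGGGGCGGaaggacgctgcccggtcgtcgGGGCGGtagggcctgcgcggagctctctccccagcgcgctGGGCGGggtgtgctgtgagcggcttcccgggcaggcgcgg
Usp3, chr9:66593066-66593365, minus strand: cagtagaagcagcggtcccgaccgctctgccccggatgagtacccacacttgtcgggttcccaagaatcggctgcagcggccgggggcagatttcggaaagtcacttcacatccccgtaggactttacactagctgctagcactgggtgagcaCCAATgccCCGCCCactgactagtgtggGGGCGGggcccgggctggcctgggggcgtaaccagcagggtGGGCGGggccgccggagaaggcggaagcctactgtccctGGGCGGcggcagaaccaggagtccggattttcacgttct
The promoter of Usp16 held 1 match, to the OTX-like motif, which was present in 7.06% of 32851 promoters of the same length. No GC box was found in it, whereas the other 8 of the 9 promoters listed, all but that of Usp22, held at least 1, compared with 35.7% of all promoters. Usp12 held 6 GC boxes and Usp3 held 4 with 1 CCAAT box, a motif in 37.4% of promoters and in 2 of these 9. The TATA box and the cAMP response element were found in 0 of the 9, against 13.6% and 1.79% of all promoters. GC content was 56.3% for Usp16, 75.7% for Usp12 and 65.0% for Usp3, and the median of all promoters was 52.7%. A match is a string of letters and not a measured site.

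Cofactors of these enzymes and the ligases that oppose them were examined as 5 lists of 34 genes, of which 32 were listed. In zygotes, limma called 0 of the 32 between the genotypes, and 1 gene was higher and 1 was lower by the unadjusted p. In 2-cell embryos, 2 were higher and 5 lower in cKO, with a median log2 fold change of -0.47 against -0.30 for all genes. These calls are to be read against 6.16% of all genes called higher and 24.6% called lower. These 7 genes kept the direction of their change without cKO 2-cell replicate 1 and without replicate 2, though not all kept their call. With median-ratio scaling 3 passed, Asxl2, Cdk1 and Usp46, where 10.5% of all genes were higher and 13.8% lower. With one weight per group 1 passed, Usp46, where 0.834% were higher and 5.93% lower. Most of the 7 calls were lost when either WT 2-cell library was left out. When limma was fitted to the 4 libraries of the 2-cell stage alone, it called 0 genes of the whole table, with 819 higher and 3416 lower by the unadjusted p.

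Most of the calls fell in the lists of PR-DUB partners and of USP12 cofactors and paralogs, which hold 9 and 5 of the 32 genes. Whether calls gather in these lists was not tested. In the PR-DUB list, 3 of 9 genes were lower and 1 was higher, beside 24.6% and 6.16% of all genes. Asxl1 and Asxl2 encode alternative subunits that activate BAP1. Asxl2 was higher, at 11.8 and 5.78 FPKM in cKO against 3.63 and 3.17 in WT 2-cell embryos, with a log2 fold change of 1.08 (SE 0.32, adjusted p = 0.0453 from limma). The call of Asxl2 was lost with no pseudocount (limma adjusted p = 0.0538) and with scaling to equal sums (0.14). Asxl1 stood at 16.1 and 7.42 against 14.6 and 15.3, at -0.41 (adjusted p = 0.409). Foxk1, Mbd5 and Mbd6, which encode DNA-binding and methyl-CpG-binding domain partners, were lower, at -0.90, -1.30 and -0.89 (adjusted p = 0.0205, 0.0233 and 0.0279). Mbd6 lost its call without cKO 2-cell replicate 2, at -0.71 and 0.0933. Foxk1 and Mbd6 were near the floor in cKO 2-cell embryos, with means of 1.03 and 1.30 FPKM.

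Among USP12 cofactors and paralogs, 2 of 5 were lower and none was higher, beside 24.6% and 6.16% of all genes. Usp46, the closest paralog of Usp12, was at 331 and 383 FPKM in WT zygotes and at 282 and 268 in cKO zygotes. At the 2-cell stage it was at 48.4 and 45.5 in WT and at 14.2 and 10.2 in cKO embryos. Usp46 was thus far more abundant than Usp12 in zygotes and dropped at the 2-cell stage in both genotypes. The 2-cell genotype difference was 3.84-fold, at a log2 fold change of -1.88 (SE 0.21, adjusted p = 0.00284 from limma). The interaction of genotype and stage for Usp46 was -1.50 (SE 0.30, adjusted p = 0.0316 from limma), beside 10.2% of all genes called lower. Alternative fits are not given for this interaction. Wdr20a, a cofactor gene, was lower at -1.44 (SE 0.27, adjusted p = 0.0114), with 143 and 185 FPKM in WT and 51.5 and 68.3 in cKO 2-cell embryos. Wdr48, which encodes the scaffold that activates USP12, USP46 and USP1, stood at 16.7 and 17.7 against 19.7 and 14.1, at -0.04 (SE 0.22, adjusted p = 0.931).

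The SAGA deubiquitinase module gave 0 calls among 7 genes between the genotypes at the 2-cell stage, and 0 at an unadjusted p under 0.05. All genes gave 6.16% higher and 24.6% lower by the adjusted p, and 9.14% and 33.4% by the unadjusted p. Some of the 7 genes were at or near the floor in all 2-cell libraries and could not give a call there. Eny2, a small adaptor subunit, was abundant in zygotes, at 336 and 382 FPKM in WT, and lower in 2-cell embryos, at 72.4 and 64.5 (log2 fold change -2.37, SE 0.33, adjusted p = 0.00175 from limma). Atxn7l3, which encodes the subunit that activates USP22, was at the floor in all 4 zygote libraries and at 9.20 and 7.45 in WT and 7.24 and 2.22 FPKM in cKO 2-cell embryos. Usp22 was likewise close to the floor in zygotes, at 1.43 to 1.85 FPKM in the 4 libraries.

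For the regulators of USP16 and for the ligases, few genes passed. Cdk1, the mitotic kinase that phosphorylates USP16, was higher at 389 and 488 FPKM in cKO against 143 and 218 in WT 2-cell embryos (log2 fold change 1.30, SE 0.35, adjusted p = 0.0346 from limma). It lost the call without cKO 2-cell replicate 1 (1.46, 0.0594) and without replicate 2 (1.13, 0.119). The other 3 regulators gave no call. Of 7 listed H2A ubiquitin ligase genes, 0 were called between the genotypes at the 2-cell stage, and 1 was higher and 2 were lower by the unadjusted p, which gave 9.14% and 33.4% of all genes. Rnf2, a catalytic subunit of PRC1, stood at 93.3 and 115 FPKM in WT and at 118 and 137 in cKO 2-cell embryos. Its log2 fold change was 0.29 (SE 0.31, 95% interval -0.46 to 1.04), at an adjusted p of 0.506.

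The pattern of Usp16 over the 8 libraries was most like that of Dirc2, Chmp1a, Actg1, Lars2 and Adnp2 among 7141 genes above the floor throughout. Their Pearson correlations with Usp16 on the log2(FPKM + 1) scale ranged from 0.785 for Adnp2 to 0.817 for Dirc2. These are descriptions over libraries that fall into 4 groups and share genotype and stage. None followed Usp16 in size, since Dirc2, the closest, was at 5.08 and 4.41 FPKM in WT and at 1.69 and 3.34 in cKO zygotes.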

How the data were processed

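RNA-seq was analysed in 8 libraries, grouped by the sample labels. The series also holds 7 ChIP-seq samples, which were not used here. For RNA, the authors trimmed reads to 50 bp, mapped them to mm9 with TopHat2 2.1.1 and computed FPKM with Cufflinks 2.2.1. The deposited FPKM values are called normalized, and neither that step nor the annotation is given in the sources used here. Genes under 1 in all samples had been excluded and lower values set to 1. Depth is unknown, so no counting error can be given.

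From these values, log2(FPKM + 1) was fitted with limma 3.58.1 in R 4.3.3, with a mean-variance trend, all 4 groups in a single model and 4 residual degrees of freedom. P-values were two-sided and adjusted by Benjamini-Hochberg over 14392 genes at 0.05. Fold changes on this scale understate changes of low genes. The 3-fold rule used group means and no test. The labels do not say whether replicates came from separate females, so p-values measure the spread between libraries, which may be technical. The limma step was tested on simulated data, but no outcome is given here and no call rests on that test. How the calls behave under the unequal spread of the real groups cannot be read from it.

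The 10 genes and all lists were chosen with earlier results of these data known. Text names all 10 genes, partner genes called between genotypes, Rnf2, Ring1, Wdr48, Asxl1, Asxl2, Atxn7l3 and Eny2, and the 5 genes most correlated with Usp16. Cct8, the oocyte and zygote markers and the 3 cumulus and granulosa markers were named after their values were seen. Asxl3 and Ring1 were not listed. Alternatives covered pseudocount, filter, scaling, spread, pairing, fold threshold and leaving out each library. Python 3.11.15, pandas 2.3.3 and scipy 1.17.1 were used otherwise.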

Additional observations from a re-analysis of the deposited data

Results flagged for a closer look

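For 3 of the 10 genes, the effect of genotype differed between zygotes and 2-cell embryos by the interaction term of limma with Benjamini-Hochberg adjustment. Usp16 gave an interaction of 2.65 on the log2(FPKM + 1) scale, from -3.21 in zygotes to -0.55 in 2-cell embryos. Usp21 gave -2.74, from 0.23 to -2.51, and Usp3 gave -1.57, from 0.02 to -1.55. The adjusted p was 0.0251, 0.0305 and 0.0373 in this order. All 4 cKO libraries of Usp16 were at or under the WT level of their stage, whereas for Usp21 and Usp3 the genotypes overlapped in zygotes and were apart in 2-cell embryos. With one weight per group, the adjusted p was 0.0522, 0.0938 and 0.134, so none of the 3 passed.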

How the results depend on the processing

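Across the alternatives, the depth behind each FPKM is unknown, and the spread between 2 libraries sets what can be detected. Usp16 was lower in cKO zygotes in all 15 alternatives, between -3.39 and -3.02, and passed limma only with one weight per group (log2 fold change -3.21, adjusted p = 0.00342), where 1 of the 10 genes was called in place of 0. Its 2-cell value ranged from -1.04 to -0.066 when single libraries were left out, and its interaction from 2.17 to 3.14. The interaction was 2.43 with scaling to equal sums and 2.65 with one weight per group, each with an adjusted p of 0.0522. At the 2-cell stage, limma called 4 genes between genotypes, 0 with one weight per group and 0 with the 4 libraries alone. Over all genes, those settings called 0.834% and 0.0% higher and 5.93% and 0.0% lower. The count among the 10 genes also moved when single libraries were left out. The interaction called 3 genes, and 0 with one weight per group, where 0.605% of all genes were higher and 4.55% lower. The interaction count moved as well when single libraries were left out. The 3-fold rule gave 3 genes at the 2-cell stage, 6 at 2-fold, and 1 with a pseudocount of 1, with every library over 3-fold or with median-ratio scaling, and 1 to 4 when single libraries were left out. In WT embryos across stages it gave 5 genes, and 3 with each of those last 3 settings. Shares of all genes were computed only for the 3-fold rule as first applied. Counts under the other settings therefore describe the 10 genes alone and cannot be compared with the table. The sum of the other 9 genes was 231 in WT and 226 in cKO zygotes after scaling to equal sums, and 182 in WT 2-cell embryos after median-ratio scaling.

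Signs turned for the values below, none of which was called as reported. Median-ratio scaling gave -0.0027 for Usp3 in zygotes, 0.073 for Bap1 across stages in cKO and 0.029 for the interaction of Usp12. Scaling to equal sums gave -0.0054 for Usp3 in zygotes, -0.089 for Usp36 at the 2-cell stage and -0.12 for its interaction, which was -0.0057 with no pseudocount. Leaving out single libraries gave -0.21 to 0.26 for Usp3, -0.19 to 0.066 for Usp12, -0.051 to 0.51 for Usp21, -0.24 to 0.15 for Usp28, -0.22 to 0.17 for Usp32 and -0.10 to 0.21 for Usp36 in zygotes. It gave -0.37 to 1.56 for Usp22 and -0.98 to 1.20 for Usp36 at the 2-cell stage, -0.43 to 0.23 for Mysm1 across stages in WT and -0.19 to 0.014 for Bap1 in cKO. For the interaction it gave -0.45 to 1.48 for Usp22 and -1.03 to 1.15 for Usp36. With a mean FPKM of at least 3, Usp12 was left out and has no value.

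Replicate numbers are shared by the groups, and no label describes a pairing. Correlations of their deviations across genes were 0.497 between the zygote groups, -0.239 between the 2-cell groups, 0.11 across stages in WT and 0.0428 in cKO. With 2 pairs per comparison and signs that differ, the numbers were not treated as pairs. A fit with the replicate block called 0 of the 10 genes between genotypes in zygotes, 4 in 2-cell embryos, 8 across stages in WT, 7 in cKO and 2 in the interaction. A crossed block, chosen after seeing the data, called 0, 6, 6, 6 and 3. In this order, the replicate block called 0.00695%, 5.42%, 33.6%, 24.4% and 0.813% of all genes higher. It called 0.0%, 23.3%, 15.2%, 26.9% and 7.07% lower. With the crossed block, 0.00695%, 6.48%, 34.6%, 25.0% and 1.43% were higher, and 0.0%, 24.6%, 15.7%, 27.4% and 8.19% were lower.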
